A study of Mus musculus with 6 samples.

Results

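The genes described are 32 genes of protein folding in the endoplasmic reticulum (ER) and of the unfolded protein response, chosen by name from a table of 30386 genes for their known roles. All 32 were found in the table, each in a single row, and 29 had a mean level of 10 CPM or more, the minimum for a test (CPM are reads scaled to the total of a library). Each was measured in dorsal epidermis of mouse embryos at E18.5, in 3 libraries of the genotype wild type (WT) and 3 of the genotype labelled p63alphaKO. All 6 samples were separated from dermis with Dispase, dissociated with Accutase and sequenced from the 3′ ends of mRNAs. p63, encoded by Trp63, is the transcription factor that maintains stratified epithelium, and alpha names its longest carboxy-terminal isoforms. The sources used here do not state the strain, how the allele was made, or whether a library is 1 embryo or a pool, so p-values measure the spread between these libraries, which may be technical.

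Secreted and membrane proteins enter the ER unfolded. There, chaperones hold them, disulfide isomerases pair their cysteines, and chains that do not fold are sent back to the cytosol for degradation (ERAD). When unfolded chains pile up, the membrane sensors IRE1 (gene Ern1), ATF6 and PERK (gene Eif2ak3) start the unfolded protein response. IRE1 splices Xbp1 mRNA and ATF6 is cut to free a transcription factor, and both raise chaperone and ERAD genes. PERK phosphorylates eIF2alpha, which lowers translation overall and raises the factor ATF4. ATF4 is shared with other stress kinases and drives the integrated stress response. In epidermis, keratinocytes that differentiate export lipids, proteases and junction proteins through this route.

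No member passed the test. Of the 29 tested members, 0 were called by limma at an adjusted p under 0.05, against 1.65% of the 7464 genes tested. At an unadjusted p under 0.05 there were 3 of 29 members (Hspa5, Chac1 and Derl2), against a background of 15.6%. edgeR on recovered reads called 0 of 29, against 1.10% of genes, and 0 of 32 without the CPM minimum, against 1.36%. With the replicate numbers as a block, limma called 0 of 29, against 1.70%. DESeq2 called 1 of 29, Derl2, against 4.25%. edgeR and DESeq2 each had 3 of 29 members at an unadjusted p under 0.05, with backgrounds of 15.1% and 14.8%. The groups did not overlap for 2 members that were higher in p63alphaKO, Hspa5 and Chac1, where the background was 7.60%, and for 1 that was lower, Derl2, where it was 13.4%.

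Exact matches to response elements of the pathway were found in the promoter windows of 13 members and not in those of 15. The choice of genes did not use this feature directly. Variant sites and sites outside the windows were not searched for, so those 15 members may still have such elements. RefSeq promoter windows (GRCm38.p6, 250 bases before to 50 after each annotated start) were at hand for 28 of the 32 members. Before and after a start refer to the RefSeq start, which can differ from the GENCODE gene positions used elsewhere. By GENCODE, the matches shown for Hspa5 and Asns lie inside the gene. The ER stress response element, ERSE, is CCAAT and CCACG with any 9 bases between them. It is bound by NF-Y at its first part and by ATF6 at its last part. On either strand it was found in 8 of 28 members (28.6%) and in 0.137% of all 27025 genes with a window. ERSE was defined on promoters of this kind, Hspa5 among them, so the share is not an independent finding. The 8 genes and their 9 matches are shown because they are the members whose windows hold this element. Each window holds the match in capitals with up to 20 bases on either side, 5′ to 3′ on the strand of the gene. A match on the opposite strand begins with CGTGG and ends with ATTGG.
Hspa5, chr2:34772005-34772063, plus strand, ERSE from 65 bases before the start: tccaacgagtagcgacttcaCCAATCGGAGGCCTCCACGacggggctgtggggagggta
Hsp90b1, chr10:86705513-86705571, minus strand, ERSE from 107 bases before the start: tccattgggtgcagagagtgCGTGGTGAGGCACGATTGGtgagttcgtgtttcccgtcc
Hsp90b1, chr10:86705618-86705676, minus strand, ERSE from 212 bases before the start: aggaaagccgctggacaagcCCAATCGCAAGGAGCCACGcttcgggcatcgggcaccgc
Calr, chr8:84847055-84847113, minus strand, ERSE from 162 bases before the start: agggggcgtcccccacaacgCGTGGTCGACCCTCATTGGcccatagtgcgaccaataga
Canx, chr11:50325780-50325838, minus strand, ERSE from 145 bases before the start: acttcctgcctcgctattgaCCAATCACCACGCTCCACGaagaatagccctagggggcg
Creld2, chr15:88819500-88819558, plus strand, ERSE from 126 bases before the start: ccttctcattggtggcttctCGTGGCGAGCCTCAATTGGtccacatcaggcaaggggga
Pdia6, chr12:17266471-17266529, plus strand, ERSE from 98 bases before the start: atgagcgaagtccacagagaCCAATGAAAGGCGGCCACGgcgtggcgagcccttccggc
Dnajc3, chr14:118937807-118937865, plus strand, ERSE from 105 bases before the start: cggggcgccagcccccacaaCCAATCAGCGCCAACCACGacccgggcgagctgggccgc
Syvn1, chr19:6046512-6046570, plus strand, ERSE from 44 bases before the start: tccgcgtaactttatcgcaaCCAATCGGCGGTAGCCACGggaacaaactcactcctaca

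The shorter ERSE-II is ATTGG and CCACG with any 1 base between them, which share the NF-Y and ATF6 parts of ERSE. It was found in 2 of 28 members (7.14%), Herpud1 and Dnajb11, and in 0.0444% of all genes. In Dnajb11 the match lies after the annotated start. The C/EBP-ATF response element, CARE, through which ATF4 acts, was searched as TGATGNAA and is less specific, with matches in 4.51% of all genes and in 4 of 28 members (14.3%). They are Asns, Chac1, Trib3 and Herpud1, and in Trib3 the match lies after the RefSeq start. As for ERSE, the shares of ERSE-II and CARE are not independent findings, because the members were chosen for known roles in this pathway. None of the matches in the members overlapped another. The 4 matches that lie before the start are shown because they are examples from the ATF4 branch beside the ERSE-type element of Herpud1, which carried both kinds.
Herpud1, chr8:94386357-94386407, plus strand, ERSE-II from 52 bases before the start: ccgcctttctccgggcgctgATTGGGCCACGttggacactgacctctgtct
Herpud1, chr8:94386297-94386344, plus strand, CARE from 112 bases before the start: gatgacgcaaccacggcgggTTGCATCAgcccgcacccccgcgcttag
Asns, chr6:7693210-7693252, minus strand, CARE from 23 bases before the start: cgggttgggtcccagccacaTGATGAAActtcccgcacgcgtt
Chac1, chr2:119351029-119351076, plus strand, CARE from 193 bases before the start: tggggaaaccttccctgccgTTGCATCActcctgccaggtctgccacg

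Neither the genes with an ERSE nor those with a CARE shared a direction. Of the 8 members with an ERSE, 3 had positive and 5 negative log2 differences (p63alphaKO minus WT, on the log2(CPM + 1) scale), from -0.83 for Creld2 to 0.35 for Hspa5, with a median of -0.038. The 2 with an ERSE-II were at -0.58 (Dnajb11) and -0.56 (Herpud1). The 4 with a CARE ran from -0.56 for Herpud1 to 0.98 for Chac1. The 15 members whose windows held none of these letters ran from -1.22 for Derl2 to 0.55 for Ddit3. The median over all genes tested was -0.085. These values describe the genes and say nothing about binding of any factor.

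The libraries had between 2564407 and 4474764 reads in genes. The dissociated tissue was epidermis by its markers: 8 suprabasal and granular genes summed to between 113594 and 128186 CPM in the 6 libraries. Trp63 was at 63.9, 71.7 and 87.2 CPM in WT replicates 1, 2 and 3 and at 143, 146 and 136 CPM in p63alphaKO, a count per gene that does not check the loss of alpha isoforms. Other tissues differed between the groups. The 23 fibroblast and dermis markers, none at 0 in every library, summed to between 2930 and 6297 CPM in WT and between 679 and 1146 CPM in p63alphaKO, and 12 of the 17 tested were called lower. The 14 skeletal muscle markers summed to between 507 and 3203 CPM in WT and between 72.0 and 128 CPM in p63alphaKO. Endothelial markers summed to 23.3 CPM or more in each WT library and to 7.9 CPM or less in each p63alphaKO library. Of the 4 tested erythroid markers, 3 were called lower by limma. Hbb-bs (limma, adjusted p = 0.0314) did not pass in DESeq2 (adjusted p = 0.33) or in limma with upper quartile factors (adjusted p = 0.0752). The erythroid sum was 1769 CPM in p63alphaKO replicate 3 and 1903 CPM in WT replicate 2. Melanocyte markers lay the other way, with sums of 203 to 343 CPM in WT and 346 to 490 CPM in p63alphaKO. None of the 4 tested was called by limma, while Dct passed in DESeq2 (adjusted p = 0.00811) and with upper quartile factors (adjusted p = 0.0442). Fibroblasts also express ER folding genes, and the part of these cells in the differences given here was not tested. In bulk tissue, fewer cells of a type and less RNA per cell cannot be told apart. Relative to the deposited scaling, TMM factors moved the median over all genes tested from -0.085 to 0.018 and upper quartile factors moved it to 0.048. The smallest factors, 0.902 and 0.886, were those of p63alphaKO replicate 3.

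**Figure D1:**
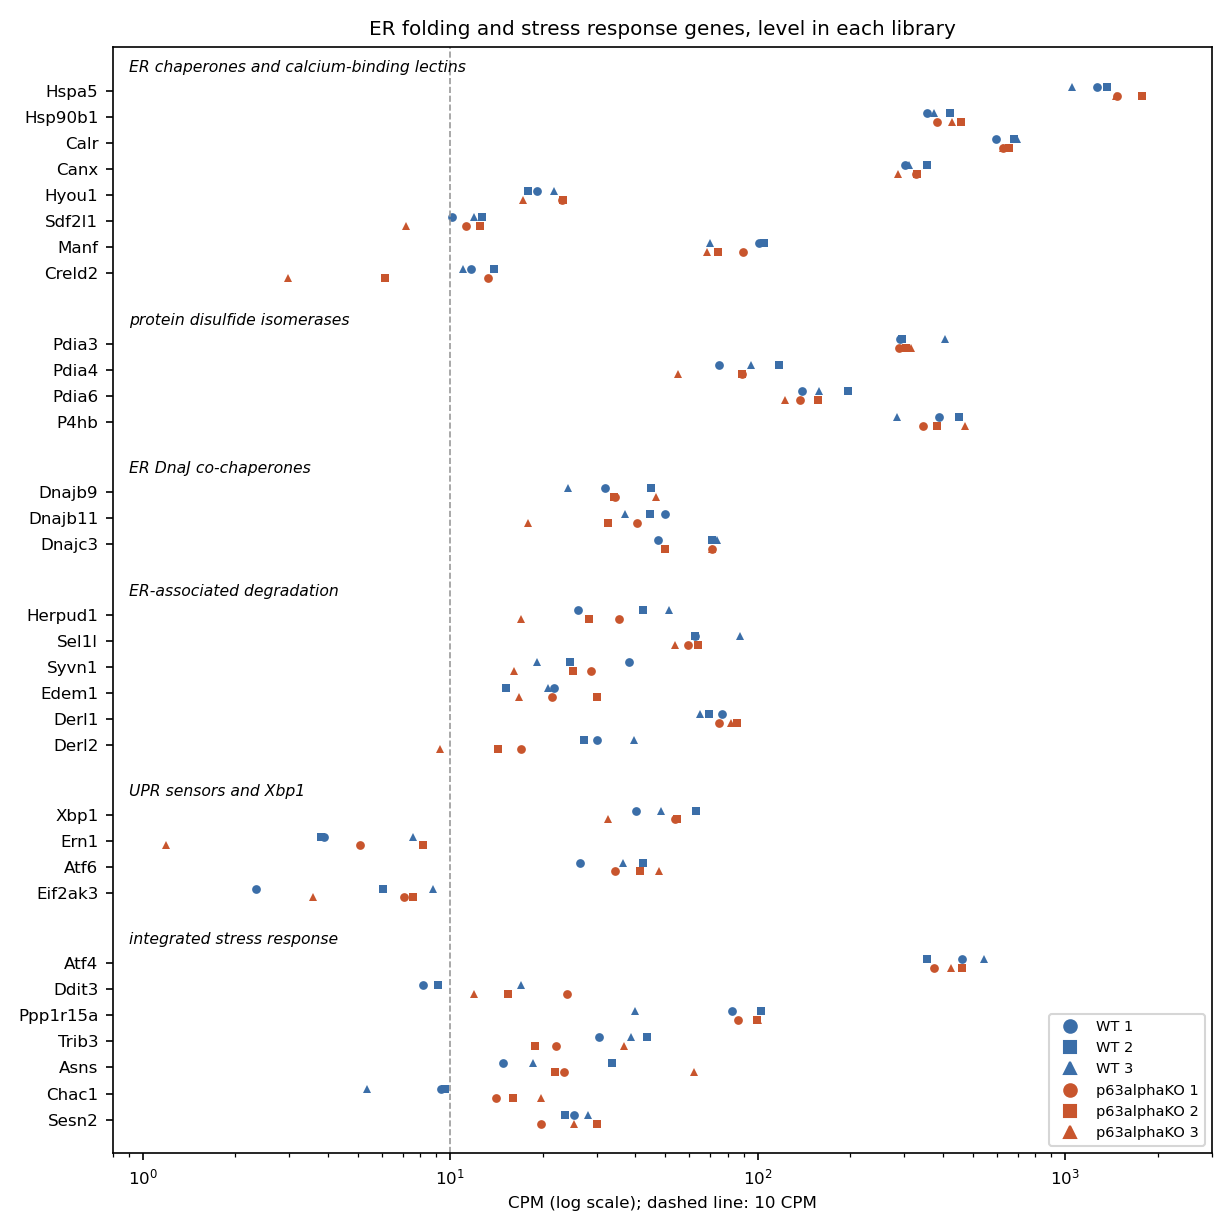
Level of each of the 32 genes in each library in CPM on a log axis, in blocks by role, with WT in blue and p63alphaKO in orange and a symbol for each replicate. For most genes the 2 colours interleave. Hspa5 and Chac1 have all orange symbols to the right of all blue ones, and Derl2 has them all to the left.

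Among the chaperones, Hspa5 was the gene whose groups did not overlap. Hspa5 encodes BiP, the main ER Hsp70, which holds nascent chains and keeps the sensors inactive. By GENCODE it lies on chromosome 2 (34771970 to 34777547, plus strand, mm10), a span that holds the ERSE match shown above. Its level was 1270, 1368 and 1054 CPM in WT replicates 1, 2 and 3 and 1473, 1782 and 1459 CPM in p63alphaKO replicates 1, 2 and 3. Every p63alphaKO library lay above every WT library, with the nearest pair being p63alphaKO replicate 3 and WT replicate 2. The means were 1231 ± 160 and 1571 ± 183 CPM (SD, n = 3 each), a ratio of 1.28. The log2 difference was 0.35 (SE 0.16, 95% interval 0.018 to 0.69) and did not pass the test (limma, adjusted p = 0.296). It lay between 0.22 and 0.49 in the 18 alternative settings, with adjusted p between 0.143 and 0.655. The groups were apart under TMM and upper quartile factors too. With these factors, 11.3% and 12.5% of all genes tested were higher without overlap.

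For the other abundant chaperones the 2 groups overlapped. Hsp90b1, encoding GRP94, the ER form of Hsp90, was at 356, 420 and 374 CPM in WT against 382, 459 and 429 CPM in p63alphaKO. Its log2 difference was 0.14, with a 95% interval from -0.19 to 0.48. Calr and Canx encode calreticulin and calnexin, the lectins that bind glycoproteins while they fold. Calr was at 658 ± 54.1 CPM in WT against 637 ± 16.8 CPM in p63alphaKO (n = 3 each), and its interval for the log2 difference ran from -0.36 to 0.27. Canx was at 322 ± 28.5 and 315 ± 24.2 CPM (n = 3 each), with an interval from -0.37 to 0.30. The sign of both changed among the alternative settings. For these 3 genes the intervals lay well within a 2-fold change either way.

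The chaperones at lower level had wider errors, and several were lowest in p63alphaKO replicate 3. Hyou1, an ER nucleotide exchange factor of the Hsp110 type, was at 19.6 ± 1.97 and 21.3 ± 3.42 CPM in WT and p63alphaKO. Sdf2l1, a cofactor of BiP, was at 10.1, 12.7 and 12.0 CPM in WT against 11.3, 12.5 and 7.16 CPM in p63alphaKO. Manf, a secreted ER stress protein, was at 101, 105 and 70.2 CPM in WT against 89.5, 74.3 and 68.3 CPM in p63alphaKO. The log2 differences of the 3 genes were 0.11, -0.18 and -0.23 (limma, adjusted p = 0.904, 0.877 and 0.658). The 3′ end of Manf overlaps exons of Dcaf1 on the other strand, and its value is uncertain because the strand setting of the counting is not stated. Creld2, a disulfide isomerase induced by ER stress, was at 11.7, 13.8 and 11.0 CPM in WT against 13.3, 6.12 and 2.98 CPM in p63alphaKO. Its mean lay just under the minimum for a test. The log2 difference of -0.83 became -0.38 without p63alphaKO replicate 3, in which 10 reads were counted, and -1.30 without p63alphaKO replicate 1. edgeR without that minimum, an analysis added after the data were seen, gave -0.60 (adjusted p = 0.673).

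The 4 protein disulfide isomerases did not separate the groups. P4hb, encoding the enzyme PDI itself, was at 389, 453 and 283 CPM in WT against 346, 383 and 472 CPM in p63alphaKO. Pdia3, the isomerase that works with calnexin and calreticulin, was at 291, 296 and 406 CPM in WT against 287, 304 and 314 CPM in p63alphaKO. WT replicate 3 held the lowest value of P4hb and the highest of Pdia3, so that library set one end of the WT range of each. Pdia4 was at 74.8, 117 and 95.4 CPM in WT against 88.7, 89.1 and 55.2 CPM in p63alphaKO. Pdia6, which also damps the sensors, was at 139, 196 and 158 CPM in WT against 137, 157 and 122 CPM in p63alphaKO. Their log2 differences were -0.31 and -0.24 (limma, adjusted p = 0.580 and 0.597), and both were lowest in p63alphaKO replicate 3. Without that library they were -0.084 and -0.15, and without WT replicate 2 they were -0.15 and -0.10. Over the 4 genes the median was -0.18. The 3′ end of Pdia6 overlaps Atp6v1c2 on the other strand.

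The 3 ER DnaJ co-chaperones, which pass chains to BiP, did not share a direction. Dnajb11 was at 49.9, 44.7 and 37.2 CPM in WT against 40.4, 32.6 and 17.9 CPM in p63alphaKO. Its log2 difference of -0.58 (95% interval -1.20 to 0.029, limma adjusted p = 0.348) became -0.26 without p63alphaKO replicate 3, and it was -0.82 without p63alphaKO replicate 1. Dnajb9, which restrains IRE1 and is a classic target of XBP1, was at 31.95, 44.9 and 24.2 CPM in WT against 34.4, 34.1 and 46.8 CPM in p63alphaKO. Its difference of 0.21 ranged from 0.0054 to 0.44 when WT replicate 3 or WT replicate 2 was left out, and leaving out p63alphaKO replicate 3 gave 0.067. Dnajc3, known as an inhibitor of PERK, was at 64.0 ± 14.3 and 63.9 ± 12.2 CPM (n = 3 each), with a 95% interval for the log2 difference from -0.49 to 0.50.

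In the degradation arm, Derl2 was lower in p63alphaKO by more than any other tested member. Derl2 encodes derlin-2, a membrane protein of the channel through which misfolded chains leave the ER. The gene lies on chromosome 11 (71007164 to 71019841, minus strand, mm10). Its level was 30.0, 27.2 and 39.7 CPM in WT, from 77, 122 and 126 reads, and 16.9, 14.3 and 9.25 CPM in p63alphaKO, from 60, 49 and 31 reads. Every p63alphaKO library lay below every WT library, and the highest p63alphaKO value was well under the lowest WT value. The means were 32.3 ± 6.53 and 13.5 ± 3.90 CPM (n = 3 each), 2.40-fold lower in p63alphaKO. The log2 difference of -1.22 (SE 0.30, 95% interval -1.87 to -0.57) missed the threshold in limma (adjusted p = 0.0577). It passed with a minimum of 3 CPM (limma, adjusted p = 0.0493), at which 2.08% of genes were called, and in DESeq2 (adjusted p = 0.0169), but not in edgeR (adjusted p = 0.0765). With a library left out, the difference lay between -1.40 and -0.99 and its adjusted p between 0.0739 and 0.237. Exons of Mis12 on the other strand overlap Derl2, but 12447 bases from its 3′ end.

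Its paralog Derl1 had a difference of the other sign. Derl1 was at 76.4, 69.4 and 64.9 CPM in WT against 75.1, 85.6 and 82.0 CPM in p63alphaKO, a log2 difference of 0.20 with a 95% interval from -0.20 to 0.60. The intervals of Derl1 and Derl2 did not overlap, though the difference between the 2 genes was not tested. Sel1l and Syvn1 encode the adaptor and the ubiquitin ligase HRD1, which form the core of the ERAD complex. Sel1l was at 62.3, 62.7 and 87.8 CPM in WT against 59.3, 64.1 and 53.7 CPM in p63alphaKO. Syvn1 was at 38.2, 24.6 and 19.2 CPM in WT against 28.8, 25.0 and 16.1 CPM in p63alphaKO, and its end overlaps Mrpl49 on the other strand. Neither separated the groups (limma, adjusted p = 0.634 and 0.814).

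Herpud1, a stress-induced ERAD scaffold, and Edem1, a lectin that marks chains for disposal, both had overlapping groups. Herpud1 was at 26.1, 42.4 and 51.3 CPM in WT against 35.3, 28.3 and 17.0 CPM in p63alphaKO. The log2 difference of -0.56 (limma, adjusted p = 0.417) lay between -0.28, without p63alphaKO replicate 3, and -0.83, without WT replicate 1. Edem1 was at 21.8, 15.2 and 20.8 CPM in WT against 21.5, 30.0 and 16.7 CPM in p63alphaKO, a difference of 0.21 (limma, adjusted p = 0.805). Without p63alphaKO replicate 2 that difference was -0.0070, and without p63alphaKO replicate 3 it was 0.40. The summed level of the 6 ERAD genes was 260 ± 21.5 CPM in WT against 226 ± 27.8 CPM in p63alphaKO, and their median log2 difference was -0.22. Without p63alphaKO replicate 3 that median was -0.075.

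**Figure D2:**
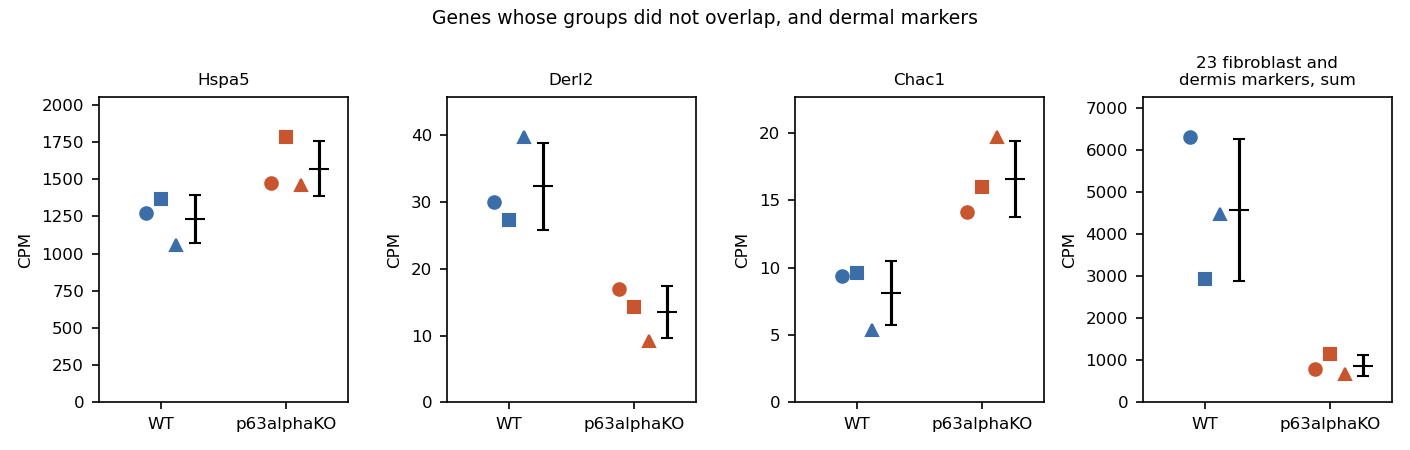
Level in CPM of Hspa5, Derl2 and Chac1 and the summed level of 23 fibroblast and dermis markers in each library, with replicates 1, 2 and 3 as circle, square and triangle and the mean ± SD beside them (n = 3). In each panel the 2 groups are apart, with p63alphaKO higher for Hspa5 and Chac1 and lower for Derl2 and the dermal markers.

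The sensors and Xbp1 showed no separation, and Ern1 and Eif2ak3 lay under the 10 CPM minimum. Xbp1, whose spliced mRNA encodes the factor of the IRE1 branch, was at 40.1, 62.97 and 48.5 CPM in WT against 53.9, 54.8 and 32.5 CPM in p63alphaKO. Its log2 difference was -0.11 (limma, adjusted p = 0.883), and counts from 3′ ends do not tell spliced from unspliced Xbp1. Atf6 was at 26.5, 42.4 and 36.5 CPM in WT against 34.4, 41.4 and 47.7 CPM in p63alphaKO, a difference of 0.24 (limma, adjusted p = 0.709). Activity of the 3 sensors is set by cleavage, phosphorylation and splicing, none of which is read by these libraries.

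Ern1 was at 3.90, 3.80 and 7.56 CPM in WT against 5.08, 8.15 and 1.19 CPM in p63alphaKO. The last of these is 4 reads, close to the limit of 3 reads, which is 0.895 CPM in that library. Eif2ak3 was at 2.34, 6.03 and 8.82 CPM in WT against 7.06, 7.57 and 3.58 CPM in p63alphaKO. For both, the spread within a group was larger than the difference between the groups. The log2 differences of Ern1 and Eif2ak3 were -0.24 and 0.15 (limma with a minimum of 3 CPM, adjusted p = 0.898 and 0.932). edgeR without the CPM minimum gave 0.044 and 0.21 (adjusted p = 0.989 and 0.926), so the sign of Ern1 differed between the tools. The read limit covers counting error only.

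In the integrated stress response, Chac1 was the member whose groups did not overlap. Chac1 encodes an enzyme that breaks down glutathione and is induced by ATF4. It lies on chromosome 2 (119351229 to 119354381, plus strand, mm10). Its level was 9.35, 9.60 and 5.35 CPM in WT, from 24, 43 and 17 reads, and 14.1, 16.0 and 19.7 CPM in p63alphaKO, from 50, 55 and 66 reads. All p63alphaKO libraries lay above all WT libraries. The means were 8.10 ± 2.39 and 16.6 ± 2.83 CPM (n = 3 each), a ratio of 2.05. The log2 difference of 0.98 (SE 0.39, 95% interval 0.15 to 1.80) did not pass the test (limma, adjusted p = 0.230). It lay between 0.73 and 1.22 in the 18 alternative settings, with adjusted p from 0.116 to 0.578 where it was tested.

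ATF4 mRNA and its other targets had differences of both signs. Atf4 itself, whose protein is raised mainly by translation, was at 461, 356 and 544 CPM in WT against 373, 461 and 425 CPM in p63alphaKO, with a 95% interval for the log2 difference from -0.48 to 0.29. Ddit3, encoding the pro-apoptotic factor CHOP, was at 8.18, 9.15 and 17.0 CPM in WT against 24.0, 15.4 and 11.9 CPM in p63alphaKO. Its difference of 0.55 (limma, adjusted p = 0.551) came with overlapping groups and was 0.29 without p63alphaKO replicate 1 and 0.85 without WT replicate 3. The end of Ddit3 overlaps Mars on the other strand, and a further entry also named Ddit3 overlaps it on the same strand. Trib3, a pseudokinase that CHOP and ATF4 induce and that feeds back on them, lay the other way from Chac1, at 30.4, 43.5 and 38.7 CPM in WT against 22.0, 18.9 and 36.7 CPM in p63alphaKO. Its difference was -0.56 (95% interval -1.16 to 0.039, limma adjusted p = 0.357), and it was negative in each of the 18 alternative settings, from -0.83 to -0.37.

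For 2 more members the size of the difference depended on which libraries entered. Asns, the asparagine synthetase gene, was at 14.8, 33.5 and 18.6 CPM in WT against 23.4, 21.8 and 62.0 CPM in p63alphaKO. Its log2 difference of 0.57 was 0.10 without p63alphaKO replicate 3, the only library of that group above the highest WT value, and 0.90 without WT replicate 2. Ppp1r15a, encoding GADD34, the phosphatase subunit that reverses eIF2alpha phosphorylation, was at 82.2, 102 and 40.0 CPM in WT against 86.1, 99.3 and 99.9 CPM in p63alphaKO. Its difference of 0.44 was 0.049 without WT replicate 3 and 0.72 without WT replicate 2, and a stretch at its end overlaps Tulp2 on the other strand. Sesn2, encoding sestrin 2, which restrains mTORC1, was at 25.7 ± 2.20 and 25.0 ± 5.12 CPM (n = 3 each), with an interval from -0.61 to 0.51. The median over the 7 genes was 0.44, and it was 0.049 without WT replicate 3 and 0.10 without p63alphaKO replicate 3. Their summed level was 633 ± 57.1 CPM in WT against 635 ± 63.6 CPM in p63alphaKO. WT replicate 3 held the lowest values of Ppp1r15a and Chac1 but the highest summed level, 692 CPM. The sum of 14 immediate early genes, such as Jun and Junb, was lowest in that library. It was 4020 CPM there and between 5132 and 6307 CPM in the other libraries. A link to the differences given here was not tested.

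**Figure D3:**
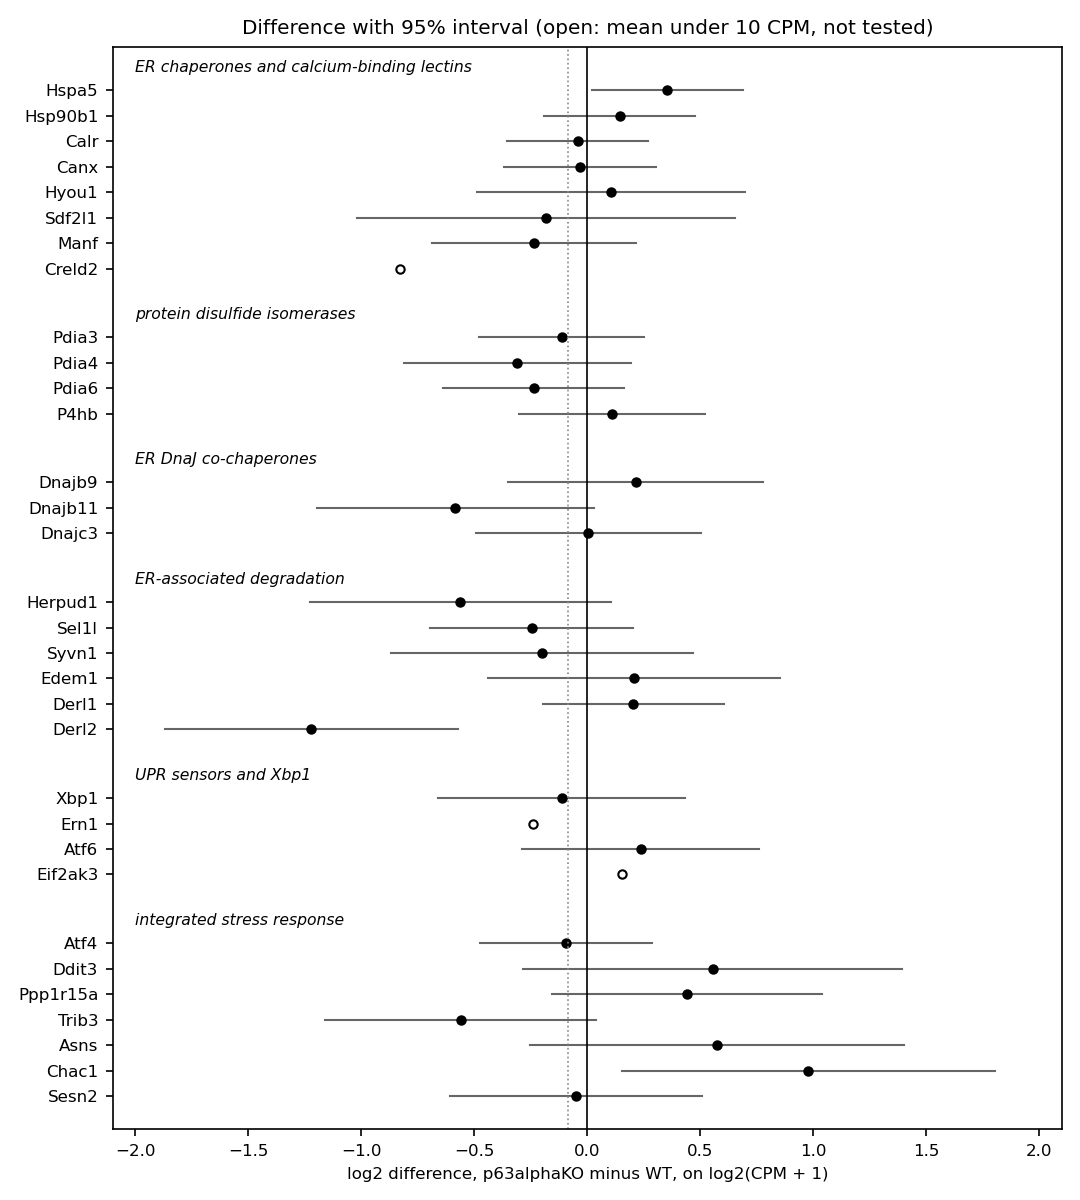
The log2 difference between p63alphaKO and WT for each gene on the log2(CPM + 1) scale, with its 95% interval from limma. Open points had a mean under 10 CPM and no test, and the dotted line is the median over all genes tested, -0.085. Only the intervals of Hspa5, Derl2 and Chac1 leave out 0, and none of the 3 passed the adjusted test.

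Over all members, the share of reads spent on these genes overlapped between the 2 genotypes under the deposited scaling, but not under every scaling. The 32 genes took 0.465%, 0.513% and 0.470% of the reads in WT and 0.485%, 0.541% and 0.496% in p63alphaKO. The means were 0.483% ± 0.0263 and 0.507% ± 0.0298 (n = 3 each), and the ranges overlapped (exact two-sided permutation test, p = 0.4, where 0.1 is the smallest p the design allows). Hspa5 made up between 22.4% and 27.3% of the members' CPM in WT and between 29.4% and 32.9% in p63alphaKO. Without Hspa5 the members took 0.360% ± 0.0197 and 0.350% ± 0.0125 (n = 3 each, same exact test, p = 0.5). With upper quartile factors the groups of the 32-gene share no longer overlapped, at 0.460% ± 0.0237 and 0.533% ± 0.0393 (n = 3 each, exact p = 0.1), while TMM factors gave p = 0.2 in the same exact test. Without Hspa5 the groups overlapped under both factors, with the p63alphaKO mean above the WT mean. The shares were then 0.343% ± 0.00908 and 0.368% ± 0.0276 with upper quartile factors (n = 3 each, same exact test, p = 0.2). With TMM factors they were 0.346% ± 0.0138 and 0.364% ± 0.0254 (n = 3 each, same exact test, p = 0.4).

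The precision allowed moderate changes to be bounded for most members. For 20 of the 29 tested members the 95% interval lay within a 2-fold change either way, and the same held for 65.7% of all genes tested. Of the 32 members, 10 had a positive difference in all settings and 9 a negative one, while 13 changed sign with the setting. The median over the 29 tested members was -0.043, and 13 of 29 (44.8%) were positive, against 40.2% of all genes tested.

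Of the 29 tested members, 12 had their lowest value in p63alphaKO replicate 3, where the background was 31.6% of all genes tested. The genes lowest there were Canx, Hyou1, Sdf2l1, Manf, Pdia4, Pdia6, Dnajb11, Herpud1, Sel1l, Syvn1, Derl2 and Xbp1, and the untested Creld2 and Ern1 were lowest there too. In the same library P4hb, Dnajb9, Atf6, Asns and Chac1 had their highest value of the 6, which is 17.2% of the tested members against 11.6% of all genes tested. That library is also the one with the smallest scaling factors.

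**Figure D4:**
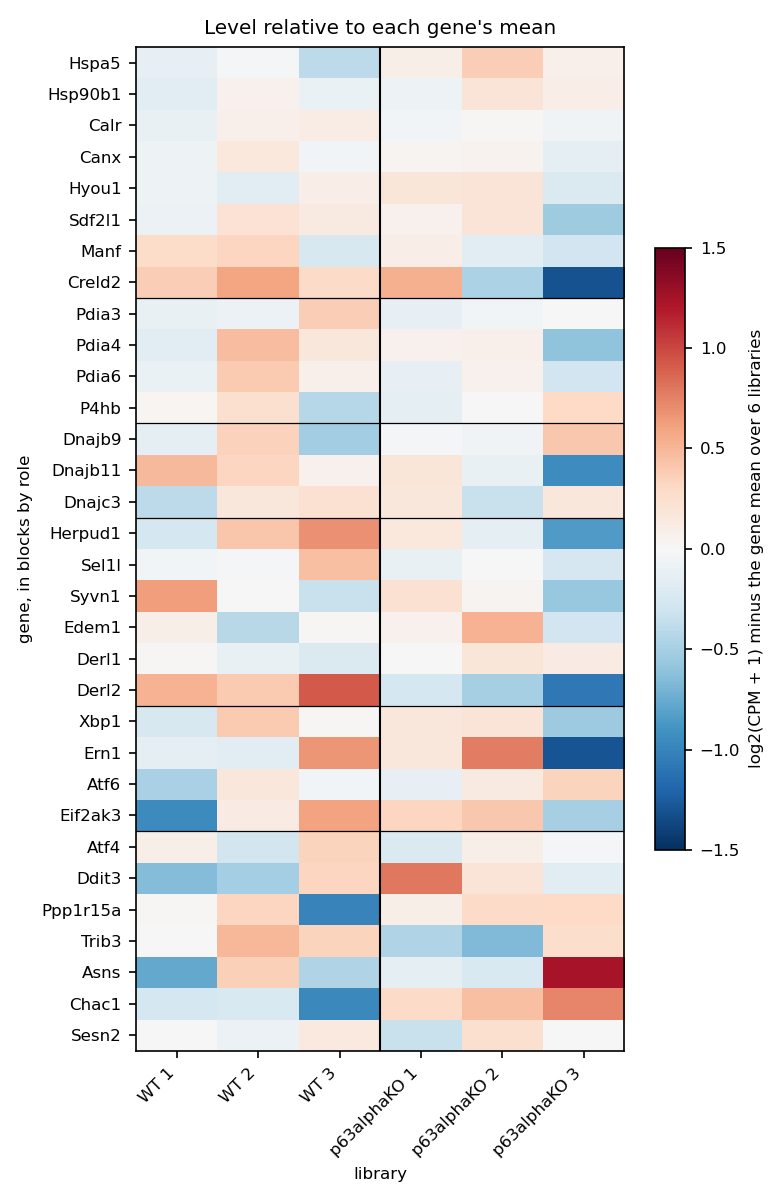
Level of each gene in each library as log2(CPM + 1) minus the gene's mean over the 6 libraries, with genes in blocks by role and a line between WT and p63alphaKO. In the p63alphaKO 3 column, blue fields such as Creld2, Dnajb11, Herpud1, Derl2 and Ern1 stand beside red ones for Asns and Chac1.

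The rest of the ER and stress response machinery was read from 6 further lists, with 194 measured genes, of which 147 were tested and 0 called by limma. At an unadjusted p under 0.05, 5 were higher and 16 lower in p63alphaKO, against 6.03% and 9.59% of all genes. DESeq2 called 3 of the 147 higher (Qsox1, Atf5 and Cbs), a share close to its 2.04% background for higher genes. The count in edgeR was 0. Among other folding factors, 22 of 26 tested had negative and 4 positive differences, where 40.2% of all genes tested were positive. Their median was -0.37, and 8 were lower and 2 higher at an unadjusted p under 0.05. Qsox1, a sulfhydryl oxidase that makes disulfides, was at 161, 192 and 138 CPM in WT against 234, 272 and 268 CPM in p63alphaKO, with no overlap. Its difference was 0.67 (limma, adjusted p = 0.0669, and 0.0400 with upper quartile factors). Cnpy2 was at 46.3 ± 1.60 CPM in WT against 25.4 ± 5.22 CPM in p63alphaKO, also without overlap (-0.86, limma, adjusted p = 0.0781).

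Some of the folding factors with negative differences serve collagen, and were picked here after their values were seen. Serpinh1, the collagen chaperone HSP47, was at 109, 44.2 and 53.2 CPM in WT against 31.3, 37.6 and 45.6 CPM in p63alphaKO (-0.74, limma, adjusted p = 0.238). Fkbp10, a prolyl isomerase of collagen, was at 12.9, 5.81 and 4.09 CPM in WT against 1.41, 0.58 and 1.19 CPM in p63alphaKO, under the minimum for a test. Col1a1, the main client, was at 1347, 468 and 938 CPM in WT against 29.4, 106 and 34.6 CPM in p63alphaKO (-4.11, limma, adjusted p = 0.00022). Ppib and Fkbp9, prolyl isomerases with negative differences (-0.39 and -0.88, limma, adjusted p = 0.295 and 0.148), had their highest value in WT replicates 3 and 2. The opposite sign was seen for Ero1l, the oxidase that recharges PDI, also picked after its values were seen, at 17.1, 20.1 and 14.5 CPM in WT against 29.1, 32.6 and 28.9 CPM in p63alphaKO (0.78, limma, adjusted p = 0.149).

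The further lists of import, glycosylation, degradation and transport had medians from -0.28 to -0.081, where that over all genes tested was -0.085. ER translocation and signal peptide genes had a median of -0.081 over 22 tested, with Srpr at 0.62 and Sec62 at 0.33 (limma, adjusted p = 0.371 and 0.409). N-glycosylation genes had a median of -0.28 over 19, with Alg3, a mannosyltransferase, at -0.96 and Rpn2, a subunit of oligosaccharyltransferase, at -0.48 (limma, adjusted p = 0.211 and 0.311). Other ERAD genes had a median of -0.10 over 25. Selenos, a selenoprotein that binds derlins, was at 161 ± 22.9 CPM in WT against 114 ± 20.7 CPM in p63alphaKO (-0.50, limma, adjusted p = 0.217), and Rad23b was at 0.33 (limma, adjusted p = 0.304). UPR signalling and COPII transport genes had a median of -0.091 over 21. Mbtps1, encoding the site-1 protease that cuts ATF6, was at 74.4, 60.1 and 77.5 CPM in WT against 48.8, 45.1 and 35.8 CPM in p63alphaKO, with no overlap (-0.70, limma, adjusted p = 0.112). Creb3l2, which encodes a factor cut in the same way, was at -0.95 (limma, adjusted p = 0.258).

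Of other genes of the integrated stress response, 21 of 34 tested had positive differences, with a median of 0.13, where 40.2% of all genes tested were positive. Atf5, a factor raised beside ATF4, was at 44.4, 34.4 and 46.6 CPM in WT against 53.4, 87.7 and 68.6 CPM in p63alphaKO. Cbs, the first enzyme of transsulfuration, which makes the cysteine for glutathione, was at 9.35, 9.60 and 14.2 CPM in WT against 20.9, 22.7 and 24.2 CPM in p63alphaKO. Neither gene's groups overlapped, and both missed the threshold in limma (0.71 and 0.99, adjusted p = 0.139 and 0.128) and passed it in DESeq2 (adjusted p = 0.0417 and 0.0347).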

How the data were processed

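The deposited values are CPM, which the authors computed per gene from each library's reads. STAR, HTSeq and mm10 are named per the submitters' processing notes. The sources used here state no versions, annotation, strand setting or use of molecular identifiers, and 2 fields of the labels differ on the RNA kit. Each of the 6 columns was tied to its sample by title. Within 0.0055 CPM, 100% of values were whole multiples of 1 read, which gave 2564407 to 4474764 reads per library, so 10 CPM stand for 25.7 to 44.8 reads.

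Genotypes were compared on log2(CPM + 1) by limma with a mean-variance trend (version 3.58.1 in R 4.3.3), two-sided and with no covariate, over the 7464 genes that averaged 10 CPM or more. Benjamini-Hochberg adjustment ran over all of them, with calls under 0.05. On this scale the change of low genes is understated. edgeR 4.0.16 and DESeq2 1.42.0 were run on the recovered reads, where they called 82 and 317 genes. The steps were tested on simulated data. That check required recovery only of changes larger than any member's difference here, so it does not show that smaller changes would be found. Of each further pathway list, every called gene and otherwise the 2 with the smallest p are named. The members, lists and tests were chosen with earlier results of these data known. Gene positions are from GENCODE vM21 (mm10), where all 32 members were found. Exons of other genes overlap 10 members on the opposite strand, 5 of them within 500 bases of the 3′ end. On the same strand, exons of other gene entries overlap Hsp90b1, Manf, Pdia4 and Ddit3. The effect of these overlaps on the counts was not tested.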

Additional observations from a re-analysis of the deposited data

How the results depend on the processing

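Over 18 alternative settings, the 32 members gave 570 values, of which 516 carried a test and 54 did not. Of those tested, 514 kept their side of the threshold and 2 (Derl2) passed it. The count of members called was 1 (Derl2) with a minimum of 3 CPM and with DESeq2, and 0 in the other settings. The count over all genes, 123 as reported, was 214 with a minimum of 3 CPM, 36 with a minimum of 50 CPM, 317 with DESeq2, and between 37 and 186 with 1 library left out (186 without WT replicate 1, and 46, 67 and 37 without p63alphaKO replicates 1, 2 and 3). Of the 147 other ER and stress response genes tested, 1 was called with upper quartile factors, where 133 of all 7464 genes were called. DESeq2 called 3 of them, where 4.25% of all genes were called. The chaperone median was 0.099 with upper quartile factors. For the integrated stress response, leaving out a library gave medians from 0.049 to 0.44. The difference in the members' share of reads, 0.0248 percentage points as reported, was 0.0616 with TMM and 0.0723 with upper quartile factors. Scaling moved the share of lower genes among all calls from 71.5% to 58.0% (TMM) and 48.1% (upper quartile). The causes were not tested. The labels number the replicates alike in both groups, but same-numbered libraries did not deviate together (r of -0.023, 0.066 and -0.108). With the replicate block, 127 genes and 0 members were called. Medians of arms with a member under 10 CPM were not computed with edgeR or DESeq2 under that minimum. Ern1, Eif2ak3 and Creld2 have means under 10 CPM.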
